A study of Pan paniscus with 11 samples.

Results

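The genes examined here encode 10 heat shock proteins of the cytosol and the mitochondrion: the small heat shock proteins HSPB1, CRYAB and HSPB2, the mitochondrial chaperonin HSPD1 with its cofactor HSPE1, the chaperone HSP90AA1, the cochaperone DNAJA1, and the HSP70 proteins HSPA1B, HSPA2 and HSPA8. They were chosen by gene symbol in the probe annotation, which gave 13 of the 12625 probe sets on the array to these 10 genes alone, out of 8226 genes that a probe set named alone. A further 7 probe sets are annotated to HSPA8, HSPA1B or HSPB2 jointly with other genes and are described separately, without being counted as members. Expression was measured in cultured fibroblasts, the collagen-producing cells of connective tissue, of the bonobo (Pan paniscus), on Affymetrix human arrays with 1 array per culture. Harvest at 50% confluence was represented by a single culture, of male line 1, with no replicate. The other groups were 5 male lines, from animals aged 4, 2, 12, 17 and 19 years (lines 1 to 5), and 5 female lines, from animals aged 9, 2, 4, 20 and 20 years (lines 1 to 5), all harvested under the study's standard conditions. Every animal was labelled normal, no genotype or treatment was given, and each line was represented by 1 standard culture, so spread between animals and between cultures is not separated. The probes follow human sequences, and a mismatch with the bonobo transcript can lower a probe set's signal, so levels were never compared between probe sets.

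Heat shock proteins bind unfolded or partly folded proteins. Small heat shock proteins hold them without using ATP, HSP70 proteins bind and release them in cycles driven by J-domain partners such as DNAJA1, HSP90 acts late in the folding of kinases and hormone receptors, and the HSPD1 chamber with its HSPE1 lid folds proteins imported into mitochondria. The stress-inducible members are switched on by the transcription factor HSF1, whereas HSPA8 is made constantly. In fibroblasts HSPB1 and CRYAB also associate with actin and intermediate filaments.

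Of the 13 probe sets, 12 lay above the floor of 100 intensity units in at least 5 of the 11 arrays and were tested. They stand for 9 genes. The exception was the single HSPA8 probe set, which read above 100 in 3 of 11 cultures. All 10 fibroblast markers measured exceeded the floor in each of the 11 cultures, whereas 1 of 14 skeletal and cardiac muscle markers did so, and DES, MYF5 and MYH7 were at the floor throughout. None of 5 endothelial markers exceeded it in every culture, but 2 of 7 keratinocyte and epithelium markers did, KRT7 at 551 to 3228 and KRT8 at 624 to 1313, as did 2 of 5 blood cell markers, CD3E and CD68. The part of these in the results was not tested.

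Certain cultures stood apart in measures other than the levels of the heat shock protein genes. Female line 1 had the lowest share of probe sets above the floor, 52.1%, against 54.3% to 60.9% elsewhere, and its 16 proliferation genes summed to 3595 intensity units, against 8069 to 21883 in the other lines. The 50% confluence culture carried ribosomal RNA signal, with 18S control values of 1508 to 2611. In male line 4 the same controls gave 146 to 313, and the ratio of 3′ to 5′ actin signal, 2.27, was the highest of all arrays. The main correlations below are also given without female line 1.

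The small heat shock proteins varied most visibly in female line 1. HSPB1, an actin-associated chaperone, read 17220 in the 50% confluence culture. It read 9130, 8197, 5980, 9896 and 9667 in male lines 1 to 5, against 14463, 6476, 9233, 5735 and 5962 in female lines 1 to 5. Female line 1 was the highest standard line, 3 other female lines lay near the lowest male line, and the sexes overlapped.

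CRYAB, the alpha-B-crystallin of lens and muscle, has 2 probe sets. The brighter one read 6534 in the 50% confluence culture. Its values were 4342, 3636, 2248, 5127 and 2748 in male lines, against 7665, 2978, 2555, 2291 and 1816 in female lines. The other read 2661 in the 50% confluence culture, 1622, 1283, 753, 1686 and 1084 in male lines, and 3989, 997, 835, 631 and 716 in female lines. Both probe sets put female line 1 on top, followed among the standard lines by male line 4 and male line 1, and they ran closely together over the 10 lines (r = 0.97, a description). The 4 other female lines fell inside or below the male range.

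HSPB2, a small heat shock protein best known from muscle, read 1305 in the 50% confluence culture. It read 1527, 963, 1114, 986 and 1140 in male lines, against 1772, 876, 865, 921 and 479 in female lines. Female line 1 was again the highest and female line 5 the lowest, with a 3.70-fold span, and the 4 female lines other than line 1 lay below every male line. In the bonobo gene table HSPB2 overlaps CRYAB, and whether their probe sets share signal was not tested. A second probe set, annotated jointly to HSPB2, C11orf52 and their readthrough transcript, followed the HSPB2 probe set over the lines (r = 0.90, a description). It also had female line 5 lowest, but it put male line 1 highest, at 1228 against 1092 in female line 1. Its value in male line 5, 772, lay below those of female lines 2, 3 and 4, at 798, 836 and 804. In bulk RNA, a difference in the number of cells that express a gene cannot be told apart from a difference in RNA per cell.

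**Figure D1:**
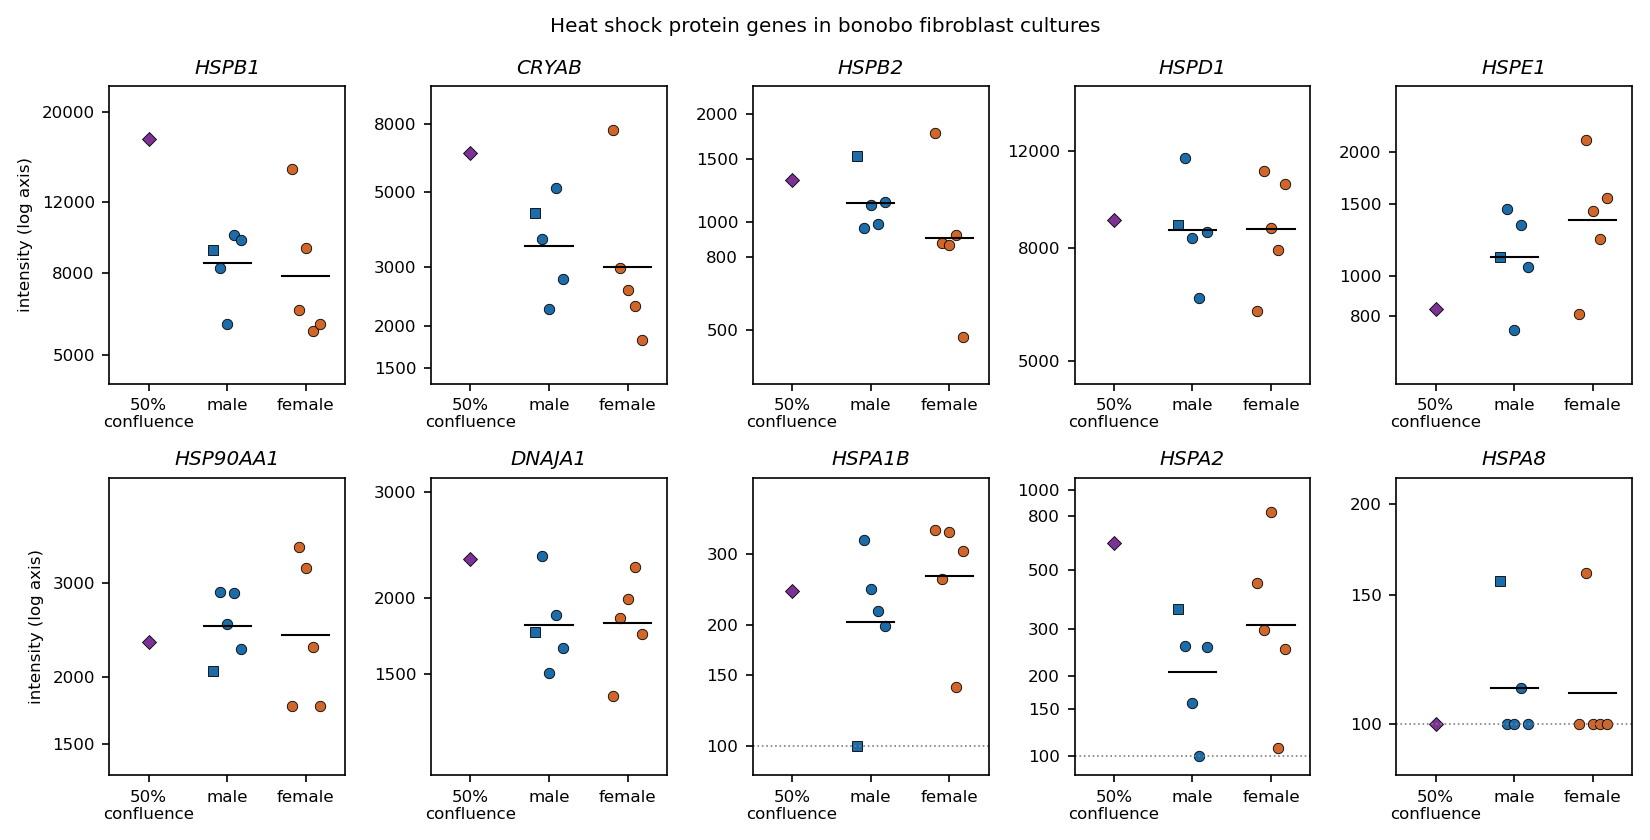
Intensity of each gene (log axis, a scale of its own in each panel) in the 50% confluence culture of male line 1 (diamond), the 5 male lines (male line 1 as a square) and the 5 female lines, with bars at the mean of the log2 values and a dotted line at the floor of 100; for genes with 2 probe sets the brighter one is drawn. Female line 1 holds the highest standard value of HSPB1 (14463), CRYAB (7665) and HSPB2 (1772), while male and female lines overlap in every panel.

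HSPD1, which forms the folding chamber of the mitochondrial chaperonin, read 9000 in the 50% confluence culture. It read 8802, 11642, 8363, 6499 and 8567 in male lines, against 6156, 11053, 8712, 7944 and 10472 in female lines. Male line 2 and female line 2, both from animals aged 2 years, were the highest, followed by female line 5, from an animal aged 20 years. Female line 1 was the lowest.

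HSPE1, the cochaperonin that closes the chamber, read 834 in the 50% confluence culture. It read 1115, 1459, 741, 1334 and 1055 in male lines, against 812, 2147, 1442, 1232 and 1545 in female lines. Female line 2 stood highest and male line 3 lowest, with a 2.90-fold span and overlapping sexes. HSPD1 and HSPE1 lie side by side and overlap in the bonobo gene table, where HSPA1B likewise overlaps HSPA1L and adjoins HSPA1A.

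HSP90AA1, the stress-inducible cytosolic HSP90, read 2330 in the 50% confluence culture. It read 2055, 2892, 2513, 2875 and 2258 in male lines, against 1771, 3511, 3204, 2283 and 1771 in female lines. The female lines held both ends of the range, with lines 1 and 5 at the same lowest value.

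DNAJA1, a J-domain partner of HSP70, had the lowest SD over the lines of the tested genes. Its brighter probe set read 2322 in the 50% confluence culture, 1755, 2349, 1502, 1879 and 1656 in male lines, and 1375, 1858, 1991, 2257 and 1745 in female lines. The dimmer one lay between 426 and 494 in male lines and between 376 and 604 in female lines. Its SD over the 10 lines was 0.24 on the log2 scale for the brighter probe set and 0.19 for the dimmer, at percentiles 7.6 and 2.8 among the 7333 tested probe sets. Both placed female line 1 lowest, but they disagreed on the highest line and followed each other only loosely (r = 0.44, a description).

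HSPA1B, a stress-inducible HSP70, read 243 in the 50% confluence culture. It read 100, 324, 246, 217 and 199 in male lines, against 343, 260, 340, 140 and 305 in female lines. Male line 1 was at the floor, so its true value is only bounded from above. The probe set carries the suffix that marks probes shared within a gene family, and HSPA1B is nearly identical to HSPA1A, so the source of this signal is uncertain. The 2 probe sets annotated jointly to HSPA1A, HSPA1B and HSPA1L followed each other over the lines (r = 0.87) but not the HSPA1B probe set (r = 0.21 and 0.18, descriptions). The brighter of them read 1020 in the 50% confluence culture, 398 to 774 in male lines and 393 to 964 in female lines, with female line 1 highest. The dimmer one was highest in female line 5, at 485 against 439 in female line 1.

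HSPA2, an HSP70 protein abundant in testis, has 2 probe sets. The brighter probe set read 635 in the 50% confluence culture. It read 359, 260, 159, 100 and 258 in male lines, against 448, 298, 828, 107 and 254 in female lines. Female line 3 was highest, 8.28 times the floor value of male line 4, and the SD of 0.93 on the log2 scale lay at percentile 97.0 of all tested probe sets. That spread includes the floor value, and at a floor of 200 the SD was 0.64, below the 0.79 of the dimmer CRYAB probe set. The dimmer probe set read 522 in the 50% confluence culture, 232, 113, 100, 100 and 295 in male lines, and 241, 100, 260, 100 and 217 in female lines. It was at the floor in 4 lines, so it orders few of them, and it placed male line 5 rather than female line 3 on top. At the floor of 100 the other SDs on the log2 scale were those of the CRYAB probe sets (0.63 brighter, 0.79 dimmer), the dimmer HSPA2 probe set (0.68), HSPA1B (0.59), HSPB2 (0.51), HSPE1 (0.45), HSPB1 (0.43), HSP90AA1 (0.34) and HSPD1 (0.30), while the median of all tested probe sets was 0.43.

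HSPA8, the constitutive HSP70, cannot be followed through its own probe set, which read 100 to 157 in male lines, 100 to 161 in female lines and 100 in the 50% confluence culture. The 4 probe sets annotated jointly to HSPA8 and the small nucleolar RNA genes SNORD14C and SNORD14D were bright. The brightest read 13141 in the 50% confluence culture, 20003, 15274, 12306, 14938 and 16566 in male lines, and 10682, 19438, 14781, 16857 and 22801 in female lines. Female line 5 was highest and female line 1 lowest in 3 of the 4. The dimmest of them read 1480 to 2073 in male lines and 1788 to 4425 in female lines, a male minus female log2 difference of -0.56 ± 0.23 (SE), which did not pass (limma, unadjusted p = 0.0252, adjusted p = 1). The other 3 had estimates of -0.07, -0.10 and -0.28.

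The male and female lines were compared with age in the same limma fit. None of the 12 tested probe sets passed, with 0 called and 0 at an unadjusted p under 0.05. Over the array, 2 of 7333 probe sets passed, 0.0273%, and 171 had an unadjusted p under 0.05. The estimates of the 12 ran from -0.61 to 0.32 on the log2 scale, 5 positive and 7 negative, with a median of -0.01, where all tested probe sets had 0.003. The largest was that of the brighter HSPA2 probe set, which averaged 227.2 ± 100.28 in male and 387.0 ± 274.87 in female lines (SD, n = 5 each), a log2 difference of -0.61 with a 95% confidence interval from -1.48 to 0.26 (limma, adjusted p = 1). It was -0.36 without female line 3, which read 828, and the dimmer HSPA2 probe set was at -0.16. HSPA1B was at -0.39, but at -0.07 without male line 1, which was at the floor. HSPE1 was at -0.30, with -0.14 without female line 2 and -0.50 without female line 1. HSPB2 was at 0.32, with 0.10 without female line 5 and 0.56 without female line 1. The brighter CRYAB probe set was at 0.20, with 0.00 without male line 4 and 0.53 without female line 1.

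For HSPD1 the interval around a difference of -0.01 ran from -0.48 to 0.45. For the brighter DNAJA1 probe set it ran from -0.44 to 0.42, and for HSPB1, at 0.10, from -0.46 to 0.67. Without female line 1 the HSPB1 and CRYAB estimates were more positive, 0.32 for HSPB1 and 0.64 for the dimmer CRYAB probe set, and neither passed (limma).

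Age, which ran from 2 to 20 years, was the other term of that fit. None of the 12 probe sets passed, and 0 of the 7333 did, 0%, while 251 had an unadjusted p under 0.05. The estimates were negative for 10 of 12 probe sets, with a median of -0.15 log2 per 10 years, where the median over all tested probe sets was -0.003. The brighter HSPA2 probe set had the largest, -0.75 ± 0.28 (SE) per 10 years with a 95% interval from -1.35 to -0.15 (limma, unadjusted p = 0.0175, adjusted p = 0.999). Its highest value, 828, was in female line 3 (4 years), and it was at the floor in male line 4 (17 years). It read nearly the same in male line 2 (2 years), at 260, and female line 5 (20 years), at 254. The dimmer HSPA2 probe set had an estimate of 0.02, with an interval from -0.57 to 0.60. The CRYAB probe sets followed at -0.29 and -0.26, then HSP90AA1 at -0.22 and HSPB2 at -0.21, each with an interval that included 0.

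**Figure D2:**
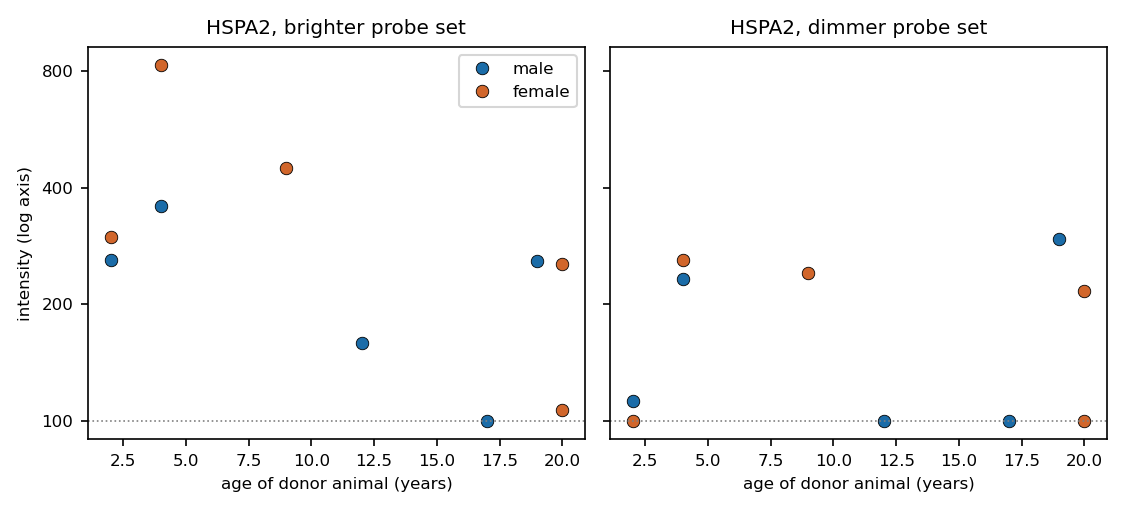
Intensity (log axis) of both HSPA2 probe sets against the age of the donor animal in years, with 1 point per standard line, male and female lines in separate colours, and a dotted line at the floor of 100. The brighter probe set is highest in female line 3 (4 years), at 828, and at the floor in male line 4 (17 years). The dimmer one is at the floor in female line 2 (2 years), male line 3 (12 years), male line 4 (17 years) and female line 4 (20 years).

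The age slope was also compared between male and female lines. Of the 12 probe sets 9 had a positive difference in slope, male minus female, and 3 a negative one, with 0 called and 0 at an unadjusted p under 0.05 (limma, lowest adjusted p = 0.973). Over the array 1 of 7333 passed, 0.0136%, and 355 had an unadjusted p under 0.05.

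The genes that work beside these chaperones gave no call for sex or age either. Of 29 tested cytosolic and mitochondrial chaperones and cochaperones, 13 had a positive and 16 a negative male minus female estimate, led by the HSP70 nucleotide exchange factor HSPBP1 (0.52), DNAJB6 (-0.47) and the HSP70 to HSP90 adaptor STIP1 (0.40), with 0 called. For age, 7 were positive and 22 negative with a median of -0.10 log2 per 10 years, led by the prefoldin subunit PFDN4 (-0.42), HSPA13 (-0.34) and the HSP90 cochaperone PTGES3 (-0.30), again with 0 called. Among 7 subunits of the CCT chaperonin, which folds actin and tubulin, 5 were positive and 2 negative by sex, and 3 positive and 4 negative by age. Of 9 chaperones of the endoplasmic reticulum, 4 were positive and 5 negative in both comparisons. HSF1 had a male minus female estimate of -0.02 and an age estimate of 0.01.

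Harvest at 50% confluence was compared with the standard culture of the same male line, with 1 culture in each state and hence no test. Of the 11 member probe sets above the floor in both cultures, 9 were higher and 2 lower at 50% confluence, with a median log2 difference of 0.40, where the 6028 probe sets above the floor in both had 0.005. A single member probe set was over 2-fold apart, the dimmer one of HSPA2, whereas 590 of the 6028 were, 9.79%. The 18S ribosomal RNA signal named above differed between the same cultures. The ratio of 3′ to 5′ actin signal was 0.67 at 50% confluence and 1.42 in the standard culture. For GAPDH it was 0.81 and 1.17. The authors' floor was 90 at 50% confluence and 100 in the standard culture. The part of these in the harvest differences was not tested.

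HSPB1 read 17220 in the 50% confluence culture, against 9130 in the standard culture, a 1.89-fold difference, and the first value lay above all 10 standard lines (5735 to 14463). The dimmer HSPA2 probe set read 522 at 50% confluence against 232, 2.25-fold, also above all 10 lines, and the brighter one read 635 against 359, 1.77-fold. The CRYAB probe sets were higher by 0.59 (brighter) and 0.71 (dimmer) on the log2 scale, within the range of the lines.

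HSPA1B read 243 at 50% confluence and was at the floor in the standard culture, at least 2.43-fold higher. The jointly annotated HSPA1A, HSPA1B and HSPA1L probe sets were 1.74 and 1.39 times the standard value. HSP90AA1 differed by 0.18, DNAJA1 by 0.40 and 0.13 and HSPD1 by 0.03 on the log2 scale, and HSPD1 took the opposite sign, -0.11, after quantile normalization.

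Lower at 50% confluence were HSPE1, at 834 against 1115, and HSPB2, at 1305 against 1527. The probe set annotated jointly to HSPB2 and C11orf52 went the other way, at 1396 against 1228, above all 10 standard lines, so the direction for HSPB2 differs between probe sets. The 4 probe sets annotated jointly to HSPA8 were also lower, with log2 differences from -0.44 to -0.61, and the brightest read 13141 at 50% confluence against 20003 in the standard culture.

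**Figure D3:**
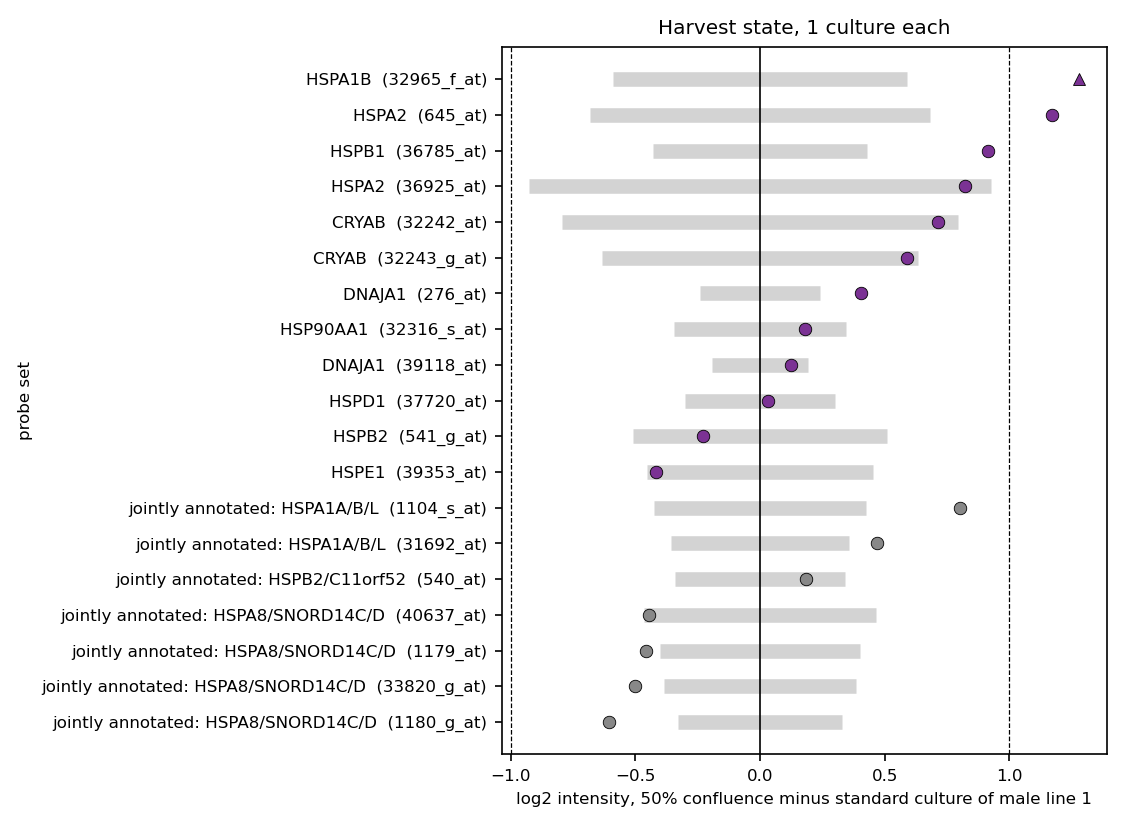
Log2 intensity difference, 50% confluence minus standard culture of male line 1, for each member probe set (purple) and each jointly annotated one (grey points), with 1 culture per state. Grey bars span 1 SD of log2 intensity over the 10 standard lines on either side of 0, dashed lines mark 2-fold, and the triangle is a lower bound because HSPA1B was at the floor in the standard culture; HSPB1 lies at 0.92 and the 4 HSPA8 annotations between -0.44 and -0.61.

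Counted by gene rather than by probe set, 8 members were above the floor in both cultures. Of these, 6 were higher and 2 lower at 50% confluence, with a median of 0.29 log2. HSPA8 is not among them, and the probe sets annotated jointly to it were all lower. Other chaperone genes, also counted by gene, leaned the other way from these 8. Of 28 further cytosolic and mitochondrial chaperones and cochaperones above the floor in both cultures, 11 were higher and 17 lower at 50% confluence, with a median of -0.28 log2. Small heat shock proteins stood at both ends, HSPB3 at 468 against 252 and HSPB6 at 248 against 480, and the J-domain protein DNAJB6 read 692 against 381. The CCT chaperonin was lower in 6 of 7 subunits with a median of -0.25, including CCT7 at 2721 against 5044 and CCT6A at 102 against 253. HSBP1, a binding partner of HSF1, read 3333 against 1743, while HSF1 itself read 830 against 896. Smooth muscle and myofibroblast genes were higher in 8 of 9, summing to 59472 at 50% confluence and 50550 in the standard culture, and their part in the HSPB1 and CRYAB values was not tested.

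Variation of the genes with each other was described over the 10 standard lines, with 1 probe set per gene and 36 pairs. Of these, 21 correlations were positive and 15 negative, with a median r of 0.11, where all pairs of the 5370 tested genes had 0.01. None passed after Benjamini-Hochberg adjustment over the 36 pairs (permutation tests, 100000 resamples), and 4 had an unadjusted permutation p under 0.05. An r above 0.7 was reached by 2 of the 36 pairs, and by 1.82% of all gene pairs.

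Among the small heat shock proteins, HSPB1 and CRYAB gave r = 0.85 (permutation p = 0.00242, adjusted p = 0.0871) and rho = 0.78 (permutation p = 0.0107, adjusted p = 0.192). Their r was 0.69 without female lines 1 and 4, which lay farthest from the HSPB1 median, 0.71 without female line 1 alone and 0.85 with each sex centred on its own mean. HSPB2 and CRYAB gave r = 0.75 (permutation p = 0.0131, adjusted p = 0.237) and rho = 0.62 (permutation p = 0.0606), but r was 0.61 without female line 1 and 0.34 without female lines 1 and 5, so that relation rests on those lines. HSPB1 and HSPB2 gave r = 0.67 (permutation p = 0.033, adjusted p = 0.313) and rho = 0.58 (permutation p = 0.0882), with r = 0.52 without female lines 1 and 4 and 0.48 without female line 1 alone.

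The mitochondrial chaperonin pair gave r = 0.62 (permutation p = 0.0512, adjusted p = 0.313) and rho = 0.70 (permutation p = 0.0314, adjusted p = 0.377). The r was 0.66 without male line 3 and female line 2, 0.49 without female line 1, 0.76 without male line 4 and 0.46 after quantile normalization. HSPE1 and DNAJA1 gave r = 0.63 (permutation p = 0.0491, adjusted p = 0.313), rho = 0.60 (permutation p = 0.0742) with r = 0.72 without male line 3 and female line 2 and 0.49 without female line 1. HSPE1 and HSPB2 ran in opposite directions, with r = -0.63 (permutation p = 0.0521, adjusted p = 0.313), rho = -0.81 (permutation p = 0.00729, adjusted p = 0.192) with r = -0.57 without female lines 1 and 5 and -0.50 without female line 1 alone. All 12 pairs of a small heat shock protein with HSPD1, HSPE1, HSP90AA1 or DNAJA1 had a negative r, from -0.12 to -0.63, though 6 of the 12 turned positive when the lines farthest from the median were left out, and 6 did without female line 1 alone.

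**Figure D4:**
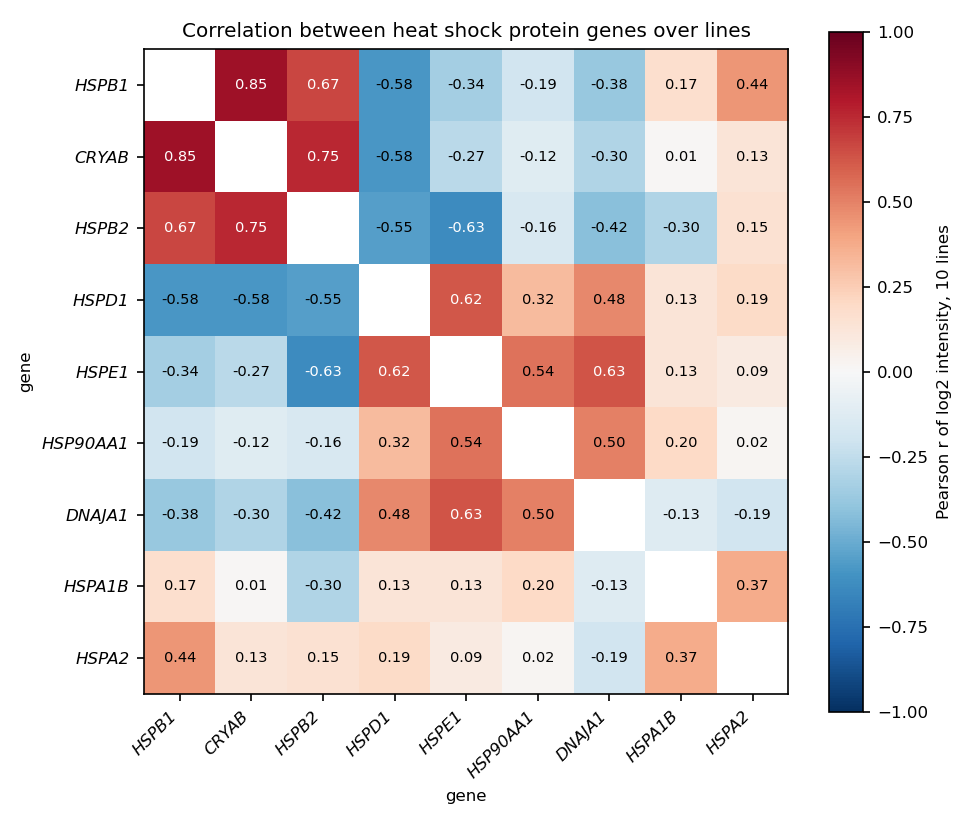
Pearson r of log2 intensity between each pair of genes over the 10 standard lines, with red for positive and blue for negative values and 1 probe set per gene. HSPB1, CRYAB and HSPB2 correlate at 0.67 to 0.85, and each has a negative r with HSPD1, HSPE1, HSP90AA1 and DNAJA1.

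Female line 1 held many of the extreme values. It was the single highest line for 4 of the 9 tested genes, HSPA1B, HSPB1, HSPB2 and CRYAB, and the single lowest for 2, HSPD1 and DNAJA1. For HSPA1B the lead was narrow, 343 against 340 in female line 3, and the jointly annotated HSPB2 probe set was highest in male line 1. Over all 5370 tested genes female line 1 was the highest for 11.8% and the lowest for 12.6%. It was also the lowest for 6 of the 7 CCT subunits, which summed to 9956 in female line 1 and to 14585 to 18594 in the other lines, and for 12 of 16 proliferation genes.

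Over the 10 lines, all 7 CCT subunits had a positive r with HSPE1, HSPD1, HSP90AA1 and DNAJA1, with medians of 0.55, 0.53, 0.47 and 0.60. With each of HSPB1, HSPB2 and CRYAB 1 of the 7 was positive, and the medians were -0.44, -0.31 and -0.34. Without female line 1 the medians for HSPE1, HSPD1, HSP90AA1 and DNAJA1 were 0.34, 0.23, 0.16 and 0.18. Those for HSPB1 and HSPB2 were then -0.16 and -0.07, and that for CRYAB changed sign to 0.21, with 4 of 7 positive. The contrast therefore depends on that line.

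With HSPB1, 9 of 9 smooth muscle and myofibroblast genes had a positive r, with a median of 0.43 over all lines and 0.42 without female line 1. With HSPA2, HSPB2 and CRYAB 7 of the 9 did over all lines, and with the other members 1 to 5. Without female line 1 the counts were 7 for HSPA2 and HSPE1 and 6 for HSPB2 and CRYAB. For HSPA1B, HSPD1, HSP90AA1 and DNAJA1 they were then 0, 2, 3 and 4. Of 16 proliferation genes 5 had a positive r with HSPB1, with a median of -0.11, but 13 did without female line 1, with a median of 0.43. Over the members these counts ran from 0 (CRYAB) to 16 (HSP90AA1 and DNAJA1). Without female line 1 they ran from 2 (HSPE1) to 15 (HSPA2). Of 5369 tested genes 2571 had a positive r with HSPB1, and 2836 without female line 1. These are descriptions without a test. The smooth muscle and myofibroblast genes summed to 13004 to 77075 intensity units in male lines and 29341 to 48134 in female lines. The part of either list in the HSPB1 level was not tested.

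**Figure D5:**
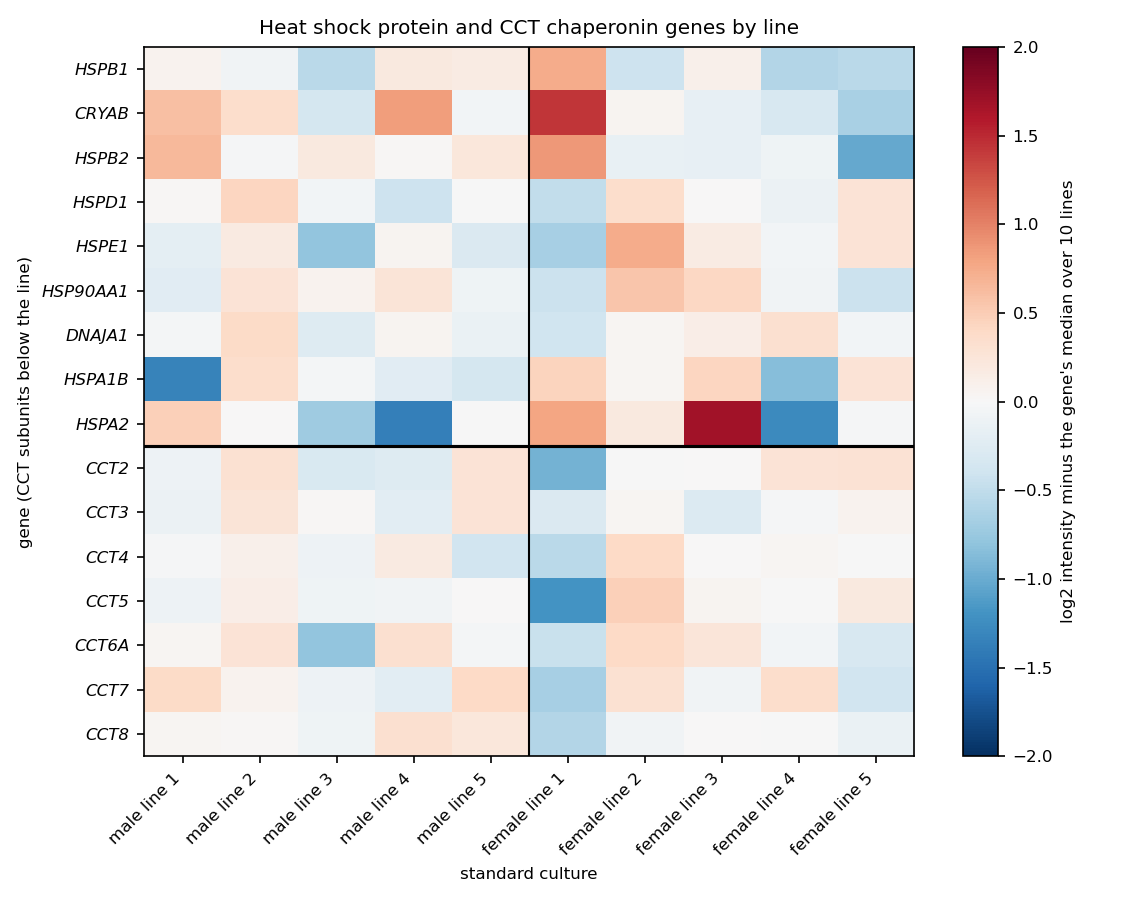
Log2 intensity minus the gene's median over the 10 standard lines, for the 9 tested genes (above the line) and 7 CCT subunits (below it), with male lines on the left and female lines on the right. Female line 1 is the highest line for HSPB1, CRYAB, HSPB2 and HSPA1B, the lowest for HSPD1, DNAJA1 and 6 of the 7 CCT subunits, and shares the lowest value of HSP90AA1 with female line 5.

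Each gene was finally set against the 5361 other tested genes over the 10 lines, and the 3 with the highest r are named as a description. HSPB1 was most like the chromatin remodelling subunit SMARCD3 (r = 0.93), the iron-sulphur scaffold gene ISCU (0.89) and the smooth muscle myosin gene MYH11 (0.87). MYH11 read 874, 100, 100, 1567 and 626 in male lines and 6163, 195, 680, 100 and 378 in female lines, with female line 1 far above the rest, and its r was 0.75 without that line. CRYAB was most like MYCBP2 (0.94), the transcription factor gene CEBPD (0.92) and the DNA repair gene MGMT (0.91), or 0.90, 0.84 and 0.83 without female line 1. HSPB2 was most like the transcription factor gene NFATC4 (0.94), GDPD5 (0.90) and EFEMP2 (0.84), which encodes an elastic fibre protein, or 0.92, 0.86 and 0.79 without that line.

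HSPD1 was most like the arginine methyltransferase gene PRMT1 (0.93), the lymphatic growth factor gene VEGFC (0.91) and the elongin subunit gene ELOA (0.91). HSPE1 was most like ARL1 (0.92), SUB1 (0.91) and SEMA7A (0.91). HSP90AA1 was most like the cholecystokinin receptor gene CCKAR (0.92), SHOC2 (0.91) and the histone variant gene H2AZ1 (0.91). DNAJA1 was most like GATAD1 (0.90), AMELY (0.89) and the splicing factor gene PRPF4 (0.89).

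HSPA1B was most like DHRS7 (0.86), DPY19L4 (0.86) and TPGS2 (0.83). HSPA2 was most like BAG2 (0.87), WDR82 (0.85) and the flippase gene ATP10D (0.85). BAG2, a cochaperone that binds HSP70 proteins, read 313, 266, 286, 198 and 258 in male lines and 292, 347, 389, 215 and 259 in female lines. Female line 3 was highest and male line 4 lowest, as for HSPA2. BAG2 was picked for its high r with HSPA2 over these lines, so shared extremes follow from that choice and are no separate result.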

How the data were processed

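RNA of 11 bonobo fibroblast cultures had been hybridised to Affymetrix human arrays. The authors deposited linear intensities, as whole numbers, and their summary and scaling methods are not stated in any label or file header. The numbers themselves show that the authors raised low intensities to a floor, 100 in 9 arrays and 90 in 2. Per the labels, lines were grouped by sex and numbered in accession order. Values were floored at 100 and taken as log2 with no further normalization. The 67 control probe sets were left out, and the 7333 of 12558 others above 100 in at least 5 of 11 arrays were tested. Of the 12558, the 2016 probe annotation gave 1 symbol to 10943, several to 545 and none to 1070. A gene with several probe sets was represented by that of highest mean log2. A bonobo gene table (assembly NHGRI_mPanPan1-v2.0_pri) was used for gene neighbours only.

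Sex and age, and in another fit sex by age, were fitted to the 10 standard lines with limma 3.58.1 in R 4.3.3 (eBayes with an intensity trend), with Benjamini-Hochberg adjustment over all 7333 probe sets, two-sided, at a threshold of 0.05. P-values of these fits judge each estimate against the spread between lines. With 1 culture each, that spread holds differences between animals and between cultures together. Correlations used two-sided permutation tests in NumPy 2.4.6, with ranks and the adjustment over pairs from SciPy 1.17.1. The precision is limited by the number of arrays. The fits were tested on simulated data. All 10 genes were named with every probe set, together with the 3 genes most like each and, from each list, up to 3 of largest estimate. The genes, lists and tests were chosen with earlier results of these data known. Alternatives were quantile normalization, median centring, a floor of 200, no filter, no intensity trend, sex or age fitted alone and leaving out each line. Centring by sex, correlations without each line in turn, and lists and most-alike genes without female line 1, were added after seeing the data. Correlations within 5 lines of a sex were not computed.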

Additional observations from a re-analysis of the deposited data

Results flagged for a closer look

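The dimmer CRYAB probe set read 3989 in female line 1, far from the other 4 female lines, at 631 to 997. On the log2 scale the gap to the nearest of them was 0.752 of the group's range, above the critical value of 0.71 for 5 samples. Of 24 groups of values examined this was the single one. Chance flags about 1 group in 20, so 1 among 24 is near what chance gives. The brighter CRYAB probe set was not flagged but had the same line on top, at 7665 against 1816 to 2978 in the other female lines. The SD of the dimmer probe set over the lines was 0.79 on the log2 scale with female line 1 and 0.51 without it.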

How the results depend on the processing

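No paired analysis was possible because replicate numbers come from accession order. No member probe set passed for sex or age under any setting run. The count of probe sets called by sex, 2, was 1 at a floor of 200, 1 with all probe sets, 3 with no intensity trend, 3 for sex without age and 1 to 2 when each line was left out. The count for age, 0, was 1 with all probe sets and 0 without each line. The count for age slope by sex, 1, was 0 under quantile normalization, median centring, all probe sets or no trend, and 0 to 1 without each line. The number of correlated pairs, 0, was 1 under quantile normalization. The causes were not tested. Leaving out a line turned the sign of small sex estimates, which ran from -0.12 to 0.09 for the brighter DNAJA1 probe set, -0.13 to 0.04 for the dimmer one, -0.07 to 0.17 for HSP90AA1, -0.45 to 0.02 for the dimmer HSPA2 probe set, -0.02 to 0.32 for HSPB1 and -0.15 to 0.11 for HSPD1. HSPD1 was also 0.01 under quantile normalization, and the dimmer HSPA2 probe set 0.00 at a floor of 200. Age estimates that turned ran from -0.13 to 0.05 for the brighter DNAJA1 probe set, -0.35 to 0.06 for HSPA1B and -0.21 to 0.22 for the dimmer HSPA2 probe set. Of 192 sex and 192 age comparisons, 172 and 186 kept their direction. The brighter HSPA2 probe set kept a negative age estimate, -0.97 to -0.52 without each line and -0.47 at the weakest other setting. A floor of 200 lowered the HSPA1B harvest difference to 0.28 and the SD of HSPA1B to 0.33, of the dimmer HSPA2 probe set to 0.20 and of the brighter one to 0.64, since values under 200 then tie.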

Other observations

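The probe set annotated to AMELY, a Y-linked amelogenin gene in humans, was above the floor in 4 of 5 female lines, at 130 to 253, and in 2 of 5 male lines, at 212 and 262, with the other 3 at 100. It carries the suffix for probes shared within a sequence family.

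HSPB3, a small heat shock protein that was no member here, read 252, 138, 352, 941 and 141 in male lines and 1179, 200, 545, 175 and 141 in female lines. Female line 1 and male line 4 stood highest, as they did for both CRYAB probe sets, and the other lines read 138 to 545.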
